A study of Mus musculus with 8 samples.

Results

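The 36 genes described here act in regulated cell death, the set of genetically encoded ways in which a cell can die. They were taken by symbol from a list of genes of apoptosis, necroptosis, pyroptosis and ferroptosis, chosen with earlier results of these data known. All 36 were found among the 46517 genes that the count tables list. By the role each gene is best known for, 23 were placed in apoptosis, 4 in necroptosis, 5 in pyroptosis and 3 in ferroptosis. The remaining gene, Tfam, encodes a factor that packages and transcribes mitochondrial DNA and belongs to none of the 4 routes.

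The genes were measured by mRNA sequencing of whole kidneys from 8 mice. The cKO group, 4 mice numbered KO16, KO18, KO19 and KO20, consisted of Xpr1lox/lox animals with the transgenes Pax8-rtTA and LC-1. Pax8-rtTA is a doxycycline-dependent activator expressed in renal tubule cells, and LC-1 carries Cre recombinase under that activator, so the floxed exon 2 of Xpr1 is removed in tubule cells and not by design in vessels, stroma or leukocytes. The 4 Control mice (C10, C11, C13 and C14) were Xpr1lox/lox littermates. Both groups drank doxycycline (2 mg/ml) for 2 weeks from 8 weeks of age. According to the labels the transgenes were present in the cKO mice, so the presence of rtTA and Cre and the loss of Xpr1, a phosphate exporter, cannot be told apart.

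In apoptosis, BH3-only proteins switch on the pore formers of the BCL2 family, mitochondria release cytochrome c, and caspases then dismantle the cell from within. Necroptosis runs through the kinase RIPK3, which phosphorylates MLKL so that it breaches the plasma membrane, and pyroptosis through inflammasomes and inflammatory caspases that cut gasdermin D, another membrane pore former. Ferroptosis is death by iron-dependent peroxidation of membrane lipids, which GPX4 holds back. All of these routes have been studied in injured kidney tubules.

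Reads assigned to genes ran from 20366113 to 26155030 per library. Xpr1 was at 5.74 to 26.5 CPM (read counts scaled to a common library size) in the cKO libraries and at 80.2 to 126 CPM in the Control libraries, as labelled (log2 fold change -2.65, SE 0.44, adjusted p = 0.00491). The kidney's own markers were present in both groups: the summed level of 6 markers of the loop of Henle and distal nephron was 4274 to 5964 CPM in cKO kidneys and 4082 to 5094 CPM in Control kidneys. Umod made up most of that sum, and 1 of the 6 rose (Aqp2, log2 fold change 1.10, SE 0.22). The sum of 7 proximal tubule markers was 1238 to 2608 CPM in cKO kidneys and 5036 to 12980 CPM in Control kidneys, and 5 of the 7 fell. Because whole kidneys were sequenced, fewer cells of a type and less RNA per cell cannot be told apart. The libraries differed in their lean to short or long transcripts. Relative to the Control mean, the shortest sixth of genes lay at 0.955, -0.234, -0.136 and 0.488 (log2) in KO16, KO18, KO19 and KO20, against 0.244, -0.362, 0.024 and 0.095 in C10, C11, C13 and C14. KO16 and KO20 thus leaned most to short transcripts, C11, KO18 and KO19 to long ones and C10 to short ones. The share of reads not assigned to a gene was 52.0%, 44.1%, 43.2% and 56.2% in the cKO libraries, against 46.9%, 39.7%, 45.0% and 47.5% in the Control libraries, highest in KO20 and KO16 and lowest in C11.

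Of the 36 genes, 6 differed between the groups beyond the spread between mice. Of the 5 that rose, 2 belong to necroptosis, 1 to pyroptosis and 2 to apoptosis. Ripk3, Mlkl, Casp4, Bak1 and Casp12 rose in cKO kidneys, Bid fell, and the other 30 did not pass the test (edgeR quasi-likelihood test, adjusted p under 0.05). The 6 genes are 16.7% of the list, against 14.1% of all 15382 genes tested. By direction, 13.9% of the list rose and 2.78% fell, against 7.50% and 6.61% of all genes. Of the 36 genes, 8 had groups without overlap (22.2%; 22.8% of all genes), and 10 had an unadjusted p under 0.05 (27.8%; 27.0% of all genes). As a whole the list was near the background of all genes. Its median log2 fold change was 0.18, against 0.0066 over all genes.

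By route the counts were small, and outside apoptosis they rest on 3 to 5 genes each. In apoptosis 3 of 23 genes were called (2 higher, 1 lower) with a median log2 fold change of 0.023. In necroptosis 2 of 4 rose (median 1.19) and in pyroptosis 1 of 5 rose (median 0.82). None of the 3 listed ferroptosis genes passed by edgeR, DESeq2 or limma-voom (median 0.21). With any of these tools 0 of the 3 had an unadjusted p under 0.05. Without KO16 and KO20 the medians of apoptosis, necroptosis, pyroptosis and ferroptosis were -0.023, 0.47, 0.37 and 0.066. Without KO16, KO20 and C11 they were -0.14, 0.40, 0.40 and 0.23. Among genes outside the list, given below, 8 of 29 in apoptosis rose and 1 fell, and 0 of 13 in necroptosis passed. In pyroptosis 2 of 15 fell, and in ferroptosis 2 of 30 rose and 4 fell. Whether the routes differ from each other was not tested.

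**Figure D1:**
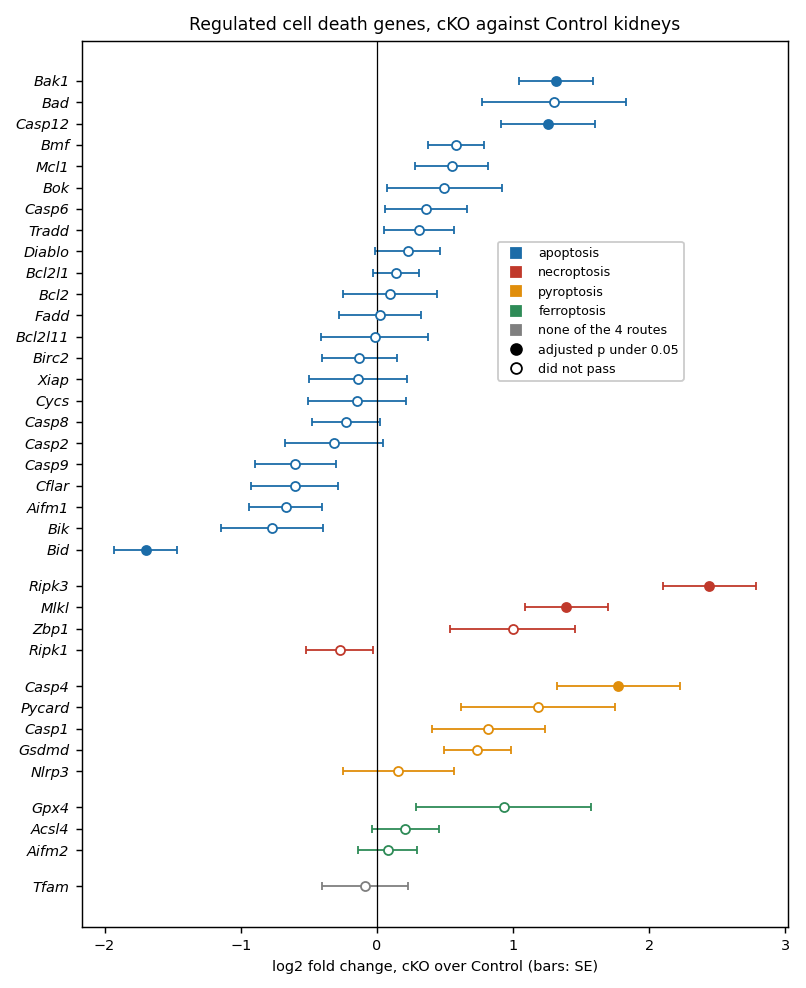
Log2 fold change of each of the 36 genes, cKO over Control, by route; points are the edgeR estimates, bars the SE, and filled points passed at adjusted p under 0.05. Ripk3 (2.44) and Bid (-1.70) stand at the ends, and most apoptosis genes lie within 1 of 0.

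The sequences before the start of 4 of the called genes are shown because they are the largest rise of the necroptosis route (Ripk3), its membrane executioner (Mlkl), the pyroptosis gene that rose (Casp4) and the gene that fell (Bid). Each line gives the 250 bases before the RefSeq start, 5′ to 3′ on the gene's strand in GRCm38.p6. Capitals mark every match, on either strand, to a GC box (GGGCGG), an interferon-stimulated response element core, an AP-1 site (TGANTCA), the p53 decamer or the NF-kB decamer; matches of different motifs may share letters.
Ripk3: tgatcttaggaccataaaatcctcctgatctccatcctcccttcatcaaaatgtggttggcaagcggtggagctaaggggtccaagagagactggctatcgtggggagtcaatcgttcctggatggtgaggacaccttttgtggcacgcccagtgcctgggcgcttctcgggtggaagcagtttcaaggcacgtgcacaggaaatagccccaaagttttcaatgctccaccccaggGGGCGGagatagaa
Mlkl: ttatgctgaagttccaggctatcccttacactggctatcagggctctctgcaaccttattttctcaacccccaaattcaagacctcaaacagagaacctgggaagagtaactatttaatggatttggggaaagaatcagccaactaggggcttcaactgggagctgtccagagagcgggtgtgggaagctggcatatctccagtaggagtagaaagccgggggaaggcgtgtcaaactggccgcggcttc
Casp4: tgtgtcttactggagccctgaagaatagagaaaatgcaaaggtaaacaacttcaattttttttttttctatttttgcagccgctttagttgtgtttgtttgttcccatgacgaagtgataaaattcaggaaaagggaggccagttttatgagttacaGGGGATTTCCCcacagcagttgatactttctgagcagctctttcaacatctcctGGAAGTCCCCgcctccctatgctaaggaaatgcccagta
Bid: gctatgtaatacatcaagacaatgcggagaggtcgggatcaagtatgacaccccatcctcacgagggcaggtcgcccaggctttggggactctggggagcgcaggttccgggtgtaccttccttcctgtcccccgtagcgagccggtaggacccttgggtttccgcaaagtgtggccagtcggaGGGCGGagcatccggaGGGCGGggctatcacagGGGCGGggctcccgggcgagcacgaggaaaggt
The windows lie at chr14:55788858-55789107 (minus strand), chr8:111338206-111338455 (minus strand), chr9:5308599-5308848 (plus strand) and chr6:120916825-120917074 (minus strand). Bid held 3 GC boxes, Ripk3 had 1, Casp4 held 3 matches to the NF-kB decamer in a pair of stretches, and Mlkl had none of the 5 motifs. The windows of the called genes Bak1 and Casp12, which are not shown, held none of the 5 motifs either. Of the 36 genes, 32 had a window in the table, and the first entry listed for a gene was used. A GC box was found in 16 of the 32, against 32.7% of 32851 windows of all genes. The NF-kB decamer was found in 2 (Aifm1 and Casp4; 6.25% against 7.25%) and the p53 decamer in 1 (Bmf; 3.12% against 7.13%). The response element core and the AP-1 site were in none of the 32 windows, against 2.98% and 6.75% of all windows. These are descriptions of letters, not of bound sites.

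Ripk3 showed the largest change of the 36 genes. It encodes the kinase that commits a cell to necroptosis, and its promoter window held the GC box shown above. Ripk3 (ENSMUSG00000022221; minus strand of chromosome 14, 55784995 to 55788865) had 7.01, 3.68, 4.82 and 5.32 CPM in the cKO mice KO16, KO18, KO19 and KO20, against 0.8199, 1.48, 0.608 and 0.886 CPM in the Control mice C10, C11, C13 and C14 (the order of mice used throughout). Every cKO mouse lay above every Control mouse, and the lowest Control library, that of C13, held 14 reads of the gene. The mean was 5.21 ± 1.39 CPM in cKO kidneys and 0.9497 ± 0.375 CPM in Control kidneys (SD, n = 4 each), a 5.48-fold difference (log2 fold change 2.44, SE 0.34, adjusted p = 0.00219). The call held in all 18 alternatives tried, with a log2 fold change of 2.14 to 2.74.

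Mlkl, the substrate of RIPK3 that perforates the membrane, rose with it by less. Mlkl (ENSMUSG00000012519; minus strand of chromosome 8, 111311797 to 111338177) had 8.396, 3.55, 4.97 and 6.66 CPM in cKO kidneys, against 2.701, 1.97, 1.91 and 2.39 CPM in Control kidneys. The groups did not overlap, and KO16 was highest. The means were 5.89 ± 2.097 CPM in cKO kidneys and 2.24 ± 0.374 CPM in Control kidneys (SD, n = 4 each; log2 fold change 1.39, SE 0.30, adjusted p = 0.0162). The call was lost without KO20 (adjusted p = 0.0523), C13 (0.0654) or C14 (0.0531), with the log2 fold change between 1.31 and 1.43 in these 3 fits.

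The remaining necroptosis genes did not pass. Ripk1, the kinase upstream of RIPK3 that also scaffolds survival signalling at the tumour necrosis factor receptor, had 13.9, 28.4, 25.8 and 19.7 CPM in cKO kidneys, against 24.7, 25.4, 28.6 and 27.4 CPM in Control kidneys (log2 fold change -0.27, SE 0.25, adjusted p = 0.535). KO16 and KO20 lay below all Control mice, and KO18 and KO19 lay within the Control range. Zbp1, a sensor of Z-form nucleic acids that recruits RIPK3, had 8.87, 3.103, 2.58 and 8.77 CPM in cKO kidneys, against 3.76, 1.93, 2.39 and 3.55 CPM in Control kidneys (log2 fold change 0.999, SE 0.46, adjusted p = 0.1999). KO16 and KO20 stood above all Control mice, whereas KO18 and KO19 lay within the Control range.

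Casp4, which encodes the mouse caspase that senses cytosolic lipopolysaccharide and is also called caspase-11, was the pyroptosis gene that rose. Casp4 (ENSMUSG00000033538; plus strand of chromosome 9, 5308828 to 5336783) had 10.8, 4.67, 4.999 and 13.2 CPM in cKO kidneys, against 3.71, 1.36, 1.78 and 2.97 CPM in Control kidneys. All cKO mice were above all Control mice, and KO16 and KO20 were the highest. The means were 8.404 ± 4.24 CPM in cKO kidneys and 2.46 ± 1.08 CPM in Control kidneys (SD, n = 4 each; log2 fold change 1.77, SE 0.45, adjusted p = 0.0294). The call was lost without KO16 (adjusted p = 0.0540), KO20 (0.0853), C11 (0.0630), C13 (0.0981) or C14 (0.0685). Without KO16 and KO20 together the estimate was 0.98 on the log2 scale (SE 0.39, adjusted p = 0.139). In the fit without these and C11, which called 57.8% of all genes, it was 0.75 (SE 0.25, adjusted p = 0.0291).

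Gsdmd, the gene of the pore former that inflammatory caspases cut, had 9.67, 5.57, 6.302 and 8.94 CPM in cKO kidneys, against 4.92, 5.09, 3.998 and 4.25 CPM in Control kidneys. The groups did not overlap, but by a narrow margin, and the test was not passed (log2 fold change 0.74, SE 0.25, adjusted p = 0.0813). It was called higher with upper-quartile factors (adjusted p = 0.0491) and with library totals alone (adjusted p = 0.0129), which move the median over all genes to 0.14 and 0.34 on the log2 scale. Casp1, the caspase of the canonical inflammasome, had 2.82, 1.79, 1.27 and 4.81 CPM in cKO kidneys, against 1.88, 1.12, 1.52 and 1.51 CPM in Control kidneys (log2 fold change 0.82, SE 0.42, adjusted p = 0.246). Pycard, the adaptor ASC that links sensors to that caspase, had 53.6, 10.3, 10.2 and 31.6 CPM in cKO kidneys, against 15.5, 5.82, 12.6 and 12.6 CPM in Control kidneys (log2 fold change 1.18, SE 0.56, adjusted p = 0.215). In both genes KO16 and KO20 lay above all Control mice, and KO18 and KO19 lay within the Control range. Nlrp3, the best known inflammasome sensor, was the least expressed of the 36 genes per kilobase of exon in both groups. It had 0.212, 0.832, 0.818 and 0.717 CPM in cKO kidneys, against 0.579, 0.682, 0.652 and 0.443 CPM in Control kidneys (log2 fold change 0.16, SE 0.41, adjusted p = 0.852), with 4 to 27 reads a library, and the groups overlapped.

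Most markers of macrophages and monocytes rose as well. Of 11 such markers 9 rose and 2 did not pass, none was at 0, and their summed level was 1046, 307, 338 and 777 CPM in KO16, KO18, KO19 and KO20, against 154, 138, 140 and 144 CPM in C10, C11, C13 and C14. KO16 and KO20 were highest in this sum, as they were for Ripk3, Mlkl, Casp4, Casp1, Pycard, Zbp1 and Gsdmd. The same order of cKO mice held for 34.1% of all genes tested. KO16 and KO20 also leaned most to short transcripts, and the part of transcript length in this order was not tested. Lyz2 made up much of the sum, at 592, 96.7, 106 and 391.7 CPM in cKO kidneys, against 48.9, 14.5, 29.8 and 32.9 CPM in Control kidneys. Ptprc and Mrc1 were lowest of the cKO mice in KO16 (11.3 and 6.004 CPM), and Csf1r was highest in KO19 (73.5 CPM). Of 7 T and NK cell markers 1 rose (Cd4), and the sums were 4.36 to 14.2 CPM in cKO kidneys and 4.04 to 6.61 CPM in Control kidneys. No B cell or neutrophil marker passed, with sums of at most 7.65 CPM in cKO kidneys and 5.64 CPM in Control kidneys. Ly6g, which defines neutrophils, averaged 0.0181 CPM in cKO kidneys and 0.0111 CPM in Control kidneys. The part of leukocytes in the rise of Ripk3, Mlkl and Casp4 was not tested.

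**Figure D2:**
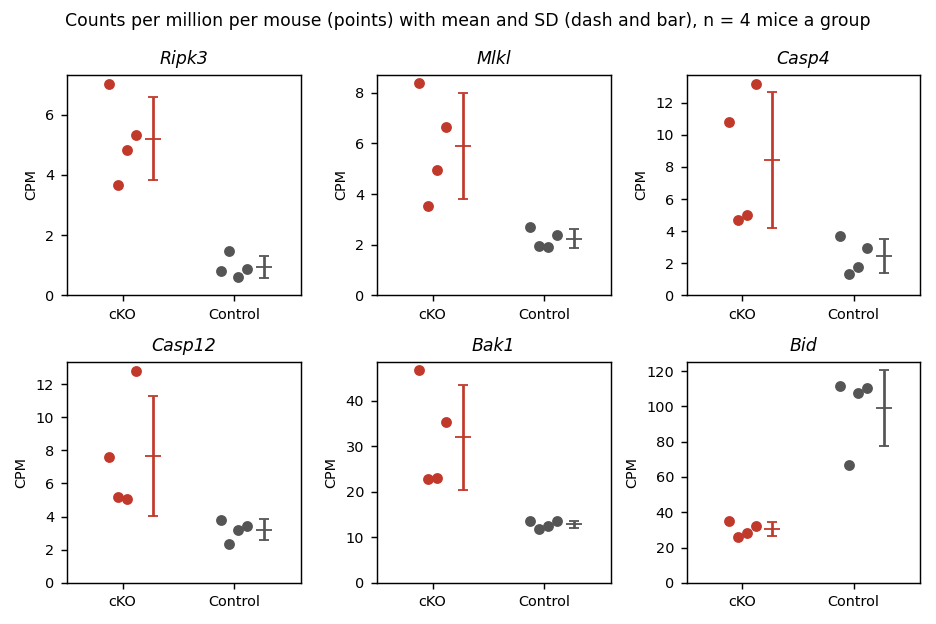
CPM per mouse for the 6 genes that passed, cKO left and Control right in each panel; points are mice, the dash and bar the mean and SD of 4 mice, and each axis starts at 0. The groups do not overlap in any panel, and in all 6 panels the cKO points of KO16 and KO20 lie above those of KO18 and KO19.

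Bid was the gene that fell. It encodes the BH3-only protein that a death-receptor caspase cuts to carry the signal to mitochondria. Bid (ENSMUSG00000004446; minus strand of chromosome 6, 120891930 to 120916853) had 35.1, 26.2, 28.4 and 32.3 CPM in cKO kidneys, against 112, 66.7, 107 and 110.2 CPM in Control kidneys. All cKO mice lay below all Control mice, and C11 was the lowest of the Control mice. The mean was 30.5 ± 3.96 CPM in cKO kidneys and 99.02 ± 21.6 CPM in Control kidneys (SD, n = 4 each; log2 fold change -1.70, SE 0.23, adjusted p = 0.00189). The fall was called in all 18 alternatives and was larger (-2.04) without KO16, KO20 and C11. Exons of Bcl2l13 on the opposite strand cover 17.7% of its exonic sequence; that gene stood at -0.42 on the log2 scale, SE 0.28 and adjusted p = 0.388, and the strand setting of the counting is not given in the sources used here.

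The other BH3-only genes did not pass. Bad, whose product is held inactive by phosphorylation, had 189.9, 37.9, 43.3 and 98.4 CPM in cKO kidneys, against 50.5, 19.6, 38.8 and 41.05 CPM in Control kidneys (log2 fold change 1.3, SE 0.53, adjusted p = 0.146). KO16 and KO20 were above all Control mice, while KO18 and KO19 were not, and exons of Gpr137 on the opposite strand cover 20.5% of its exonic sequence. Bad was called higher with library totals alone (1.53, adjusted p = 0.0412), which moved the median over all genes to 0.34. Bmf, linked to the cytoskeleton in healthy cells, had 12.1, 16.96, 18.1 and 15.99 CPM in cKO kidneys, against 9.89, 11.5, 11.3 and 9.57 CPM in Control kidneys (log2 fold change 0.58, SE 0.20, adjusted p = 0.0997). Its groups did not overlap, and it was called higher in 7 of the 18 alternatives. Among these were the fit without KO16 (0.69, adjusted p = 0.0235) and DESeq2 (0.56, adjusted p = 0.0257). Bik, a BH3-only protein of the endoplasmic reticulum, had 12.6, 4.86, 5.302 and 9.41 CPM in cKO kidneys, against 19.3, 8.38, 12.1 and 14.98 CPM in Control kidneys (log2 fold change -0.77, SE 0.37, adjusted p = 0.224). KO18 and KO19 lay below all Control mice, and KO16 and KO20 within their range. It was called lower without KO16 and KO20 (-1.44, adjusted p = 0.0348) and once the length trend was taken out (-1.08, adjusted p = 0.00607). Bcl2l11, which encodes BIM, had 5.21, 11.04, 11.8 and 6.45 CPM in cKO kidneys, against 6.56, 15.3, 5.74 and 7.403 CPM in Control kidneys, and C11 was the highest of the 8 mice (log2 fold change -0.02, SE 0.39, adjusted p = 0.984).

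Bak1, a pore former of the mitochondrial outer membrane, rose. Bak1 (ENSMUSG00000057789; minus strand of chromosome 17, 27019810 to 27029009) had 46.8, 22.7, 22.97 and 35.3 CPM in cKO kidneys, against 13.6, 11.8, 12.4 and 13.5 CPM in Control kidneys. The Control mice lay within 11.8 to 13.6 CPM and every cKO mouse was above them. The means were 31.9 ± 11.5 CPM in cKO kidneys and 12.8 ± 0.843 CPM in Control kidneys (SD, n = 4 each; log2 fold change 1.32, SE 0.27, adjusted p = 0.0127). The call was lost without C13 alone (adjusted p = 0.0526). In the fit without KO16, KO20 and C11, which called 57.8% of all genes, the estimate was 0.76 on the log2 scale (SE 0.11, adjusted p = 0.000378). Ggnbp1 on the opposite strand shares 18.2% of its exonic sequence and had log2 fold change -0.61, SE 0.22 and adjusted p = 0.103. Bok, a BCL2 relative that can form pores without BH3-only help, had 76.99, 27.4, 32.2 and 63.8 CPM in cKO kidneys, against 49.2, 16.6, 33.8 and 42.6 CPM in Control kidneys (log2 fold change 0.49, SE 0.42, adjusted p = 0.509), with KO16 and KO20 highest and C11 lowest.

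The 3 anti-apoptotic BCL2 genes of the list had log2 fold changes of 0.10 to 0.55 and none passed. Mcl1, a short-lived guardian of mitochondria, was the most expressed apoptosis gene per kilobase and had 93.6, 200.4, 176 and 225 CPM in cKO kidneys, against 122, 113, 117 and 123 CPM in Control kidneys (log2 fold change 0.55, SE 0.27, adjusted p = 0.2303). KO18, KO19 and KO20 exceeded every Control mouse and KO16 lay below them all; without KO16 the gene was called higher (0.76, adjusted p = 0.0102). Bcl2l1, which encodes BCL-XL, had 94.8, 109, 102 and 117 CPM in cKO kidneys, against 92.9, 94.2, 95.6 and 100.1 CPM in Control kidneys (log2 fold change 0.14, SE 0.17, adjusted p = 0.657), a narrow range in which the groups overlapped. Bcl2, the founding member of the family, had 5.79, 19.4, 15.8 and 15.02 CPM in cKO kidneys, against 11.8, 16.97, 11.5 and 12.2 CPM in Control kidneys (log2 fold change 0.10, SE 0.35, adjusted p = 0.894), and KO16 was again the lowest. Its sign turned with limma-voom (-0.0074) and without KO18 (-0.11).

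Among the apoptosis caspases, Casp12 rose. It encodes a caspase of the endoplasmic reticulum that sits beside Casp1 and Casp4 in the mouse genome. Casp12 (ENSMUSG00000025887; plus strand of chromosome 9, 5345430 to 5373032) had 7.598, 5.15, 5.03 and 12.8 CPM in cKO kidneys, against 3.81, 2.33, 3.17 and 3.46 CPM in Control kidneys. The groups did not overlap and KO20 was highest. The means were 7.65 ± 3.65 CPM in cKO kidneys and 3.19 ± 0.633 CPM in Control kidneys (SD, n = 4 each; log2 fold change 1.26, SE 0.35, adjusted p = 0.0401). This call was the least firm of the 6: it was lost without KO16 (adjusted p = 0.0556), KO20 (0.0887), C10 (0.0746), C11 (0.0878), C13 (0.113) or C14 (0.0992), by limma-voom (0.0551), with no filter (0.0509) and without KO16 and KO20 together (0.0993). The other 5 genes lost their calls in at most 6 of the 18 alternatives, and Casp12 in 9.

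The other caspase genes of apoptosis did not pass. Casp8, which starts death-receptor apoptosis and restrains RIPK3, had 21.8, 27.03, 27.0 and 15.7 CPM in cKO kidneys, against 23.01, 34.2, 27.7 and 22.4 CPM in Control kidneys (log2 fold change -0.23, SE 0.25, adjusted p = 0.613). Casp9, the initiator on the apoptosome, had 12.5, 24.2, 27.9 and 17.2 CPM in cKO kidneys, against 24.2, 41.99, 29.3 and 28.3 CPM in Control kidneys (log2 fold change -0.60, SE 0.30, adjusted p = 0.235), with KO16 and KO20 the lowest. Casp2, an initiator linked to DNA damage, had 6.43, 19.4, 18.7 and 9.36 CPM in cKO kidneys, against 13.99, 20.9, 16.2 and 16.1 CPM in Control kidneys (log2 fold change -0.32, SE 0.36, adjusted p = 0.633). The executioner gene Casp6 had 52.5, 24.1, 24.8 and 39.9 CPM in cKO kidneys, against 33.2, 19.9, 28.03 and 28.9 CPM in Control kidneys (log2 fold change 0.36, SE 0.30, adjusted p = 0.497). In all 4 genes the groups overlapped, and KO16 and KO20 lay on the same side of KO18 and KO19.

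Genes of proteins released from mitochondria did not pass. Cycs, which encodes cytochrome c, had 41.7, 24.1, 22.3 and 49.7 CPM in cKO kidneys, against 50.5, 19.5, 39.7 and 42.5 CPM in Control kidneys (log2 fold change -0.14, SE 0.36, adjusted p = 0.846). The cKO range lay inside the Control range, and 2 pseudogenes carry its name, and reads that map to both are left unassigned by HTSeq. Diablo, whose product blocks inhibitors of apoptosis, had 88.1, 60.4, 57.8 and 82.8 CPM in cKO kidneys, against 73.4, 42.9, 66.5 and 64.5 CPM in Control kidneys (log2 fold change 0.22, SE 0.24, adjusted p = 0.611), with C11 the lowest mouse. Aifm1, a flavoprotein of the inner space of mitochondria that can move to the nucleus, had 60.8, 97.9, 92.5 and 57.95 CPM in cKO kidneys, against 95.3, 171, 117 and 109 CPM in Control kidneys (log2 fold change -0.67, SE 0.27, adjusted p = 0.145), and C11 was the highest of all mice. Tfam had 108, 59.2, 61.9 and 114 CPM in cKO kidneys, against 113, 54.3, 97.3 and 99.5 CPM in Control kidneys (log2 fold change -0.09, SE 0.31, adjusted p = 0.892).

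Inhibitors and adaptors varied mostly within the groups. Xiap, the direct caspase inhibitor, had 40.7, 111, 101 and 137 CPM in cKO kidneys, against 124, 69.9, 116 and 118 CPM in Control kidneys (log2 fold change -0.14, SE 0.36, adjusted p = 0.852). Birc2, a ubiquitin ligase of death-receptor complexes, had 22.2, 52.8, 48.5 and 39.9 CPM in cKO kidneys, against 43.2, 40.1, 46.7 and 48.8 CPM in Control kidneys (log2 fold change -0.13, SE 0.27, adjusted p = 0.817). In both genes KO16 was the lowest of the 8 mice and the groups overlapped. Both estimates turned positive with library totals alone (0.24 and 0.25) and without KO16 (0.12 and 0.08). Cflar, the decoy that keeps the death-receptor caspase in check, had 38.05, 112, 99.3 and 65.2 CPM in cKO kidneys, against 105, 134, 119.9 and 119.9 CPM in Control kidneys (log2 fold change -0.60, SE 0.32, adjusted p = 0.266); KO16 was lowest, and KO18 reached into the Control range. Fadd, the adaptor that brings that caspase to the receptor, had 28.5, 11.7, 13.2 and 13.8 CPM in cKO kidneys, against 17.5, 16.6, 16.3 and 15.7 CPM in Control kidneys (log2 fold change 0.02, SE 0.30, adjusted p = 0.973), and KO16 alone lay above the Control mice while the other 3 cKO mice lay below them. Its sign turned without KO16 (-0.36). Tradd, the adaptor of tumour necrosis factor receptors, had 18.6, 9.66, 11.2 and 14.6 CPM in cKO kidneys, against 12.97, 9.51, 11.7 and 9.397 CPM in Control kidneys (log2 fold change 0.31, SE 0.26, adjusted p = 0.491), and KO16 and KO20 lay above all Control mice.

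None of the 3 listed ferroptosis genes passed the test, and the sign of Gpx4 turned when libraries were left out. Gpx4, the selenoenzyme that reduces lipid peroxides, had 1648, 223, 258 and 652 CPM in cKO kidneys, against 460.2, 150.3, 425 and 424 CPM in Control kidneys (log2 fold change 0.93, SE 0.64, adjusted p = 0.399). KO16 and KO20 lay above all Control mice, KO18 and KO19 lay below 3 of the 4, and C11 was the lowest of the 8 mice. The estimate was 0.05 without KO16 (adjusted p = 0.967) and -0.61 without KO16 and KO20 (adjusted p = 0.387). In the fit without KO16, KO20 and C11, which called 57.8% of all genes, it was -0.90 on the log2 scale (SE 0.11, adjusted p = 0.000122). Its exonic sequence of 1724 bp is among the shorter ones of the list, and 1 pseudogene carries its name. Acsl4, which loads membranes with oxidisable fatty acids, had 31.3, 61.6, 56.1 and 64.8 CPM in cKO kidneys, against 48.3, 44.4, 45.02 and 47.4 CPM in Control kidneys (log2 fold change 0.21, SE 0.25, adjusted p = 0.647). KO18, KO19 and KO20 lay above all Control mice and KO16 below them all. Aifm2, which encodes the coenzyme Q reductase FSP1, had 16.8, 16.96, 17.0 and 17.4 CPM in cKO kidneys, against 13.8, 22.4, 13.7 and 14.7 CPM in Control kidneys, and C11 was the highest mouse (log2 fold change 0.08, SE 0.22, adjusted p = 0.864).

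**Figure D3:**
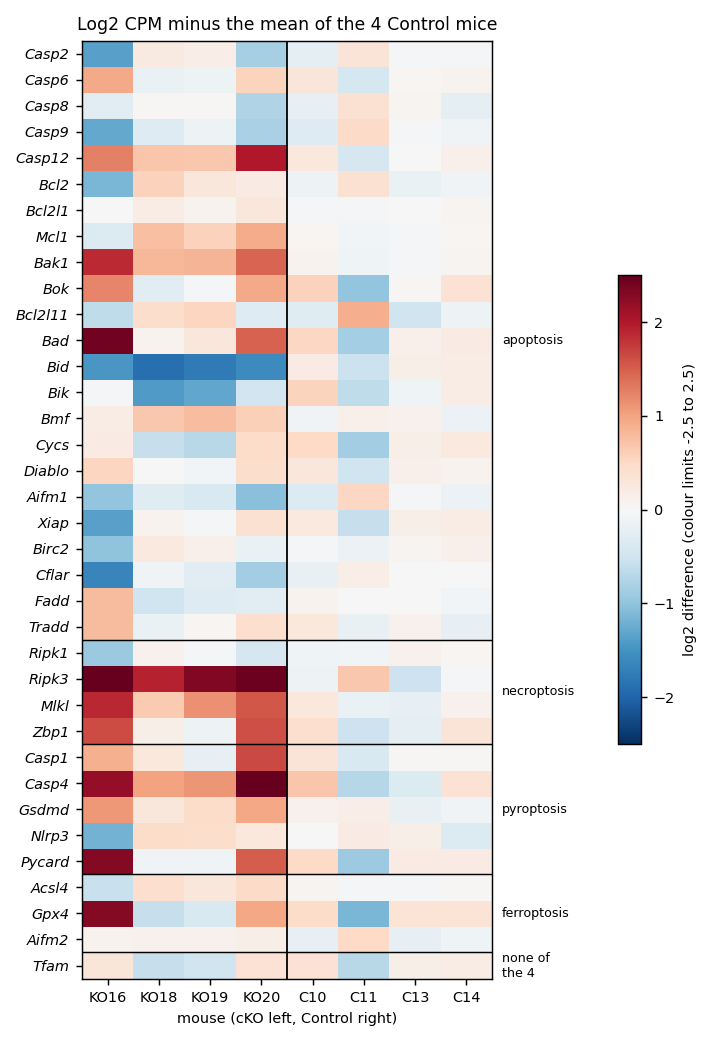
Log2 CPM of each gene in each mouse minus the mean of the 4 Control mice, cKO mice left and Control mice right, genes grouped by route; red is above and blue below the Control mean, with colours limited to -2.5 and 2.5. Ripk3 is red and Bid blue in all 4 cKO columns, whereas for Gpx4, Pycard and Bad the KO16 and KO20 columns differ from KO18 and KO19.

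The split of the cKO mice ran through much of the list. KO16 and KO20 were both above KO18 and KO19 for 20 of the 36 genes (55.6%; 34.1% of all genes tested) and both below them for 11 (30.6%; 39.5% of all genes). The median exonic length was 2981 bp for the 20 genes and 5253 bp for the 11, against 2475.5 and 6016 bp for all genes with these orders. C11 was the lowest Control mouse for 19 genes (52.8%; 42.2% of all) and the highest for 12 (33.3%; 42.6% of all). C11 was also the lowest Control mouse for 15 of the 20 genes, against 3935 of the 5251 genes of the whole table with that order of cKO mice.

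Leaving out KO16, KO20 and C11 narrowed the spread and changed many of the list's values. In that comparison, of 2 cKO with 3 Control mice, 57.8% of all 15881 genes tested were called, and 19 of the 36 (52.8%), 10 higher and 9 lower. By direction that is set against 29.5% higher and 28.2% lower among all genes. All 6 genes called with 8 mice kept their calls and directions. The fit reuses libraries of the comparison of 8 mice, so the kept calls are no independent support. Casp12 stood at 0.51 on the log2 scale, against 1.26 with all mice, Casp4 at 0.75 against 1.77 and Mlkl at 0.83 against 1.39. The cKO mice left in, KO18 and KO19, lean to long transcripts and C10 to short ones, as given above. Mcl1 (0.60), Bmf (0.73), Bcl2 (0.53), Bcl2l11 (0.76) and Acsl4 (0.29) were then called higher as well. Bik (-1.64), Cycs (-0.97), Tfam (-0.81), Gpx4 (-0.90), Bok (-0.53), Fadd (-0.44), Pycard (-0.44) and Casp6 (-0.33) were called lower, and for 14 of the 36 genes the sign turned. The list median was then -0.067, against 0.0049 over all genes. Without KO16 and KO20 alone, 5 genes were called higher and 2 lower, 7 of the 36, against 16.6% of all 15967 genes tested (8.17% higher and 8.40% lower). These counts come from fewer mice and from the choice of libraries, and the part of transcript length in them was not tested.

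**Figure D4:**
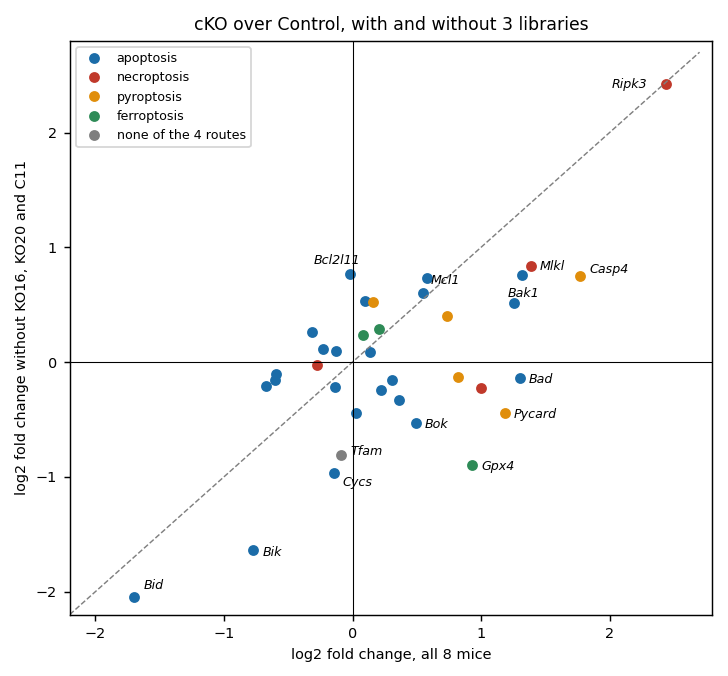
Log2 fold change of each gene, cKO over Control, with all 8 mice (horizontal axis) and without KO16, KO20 and C11 (vertical axis); the dashed line marks equal values and colours mark routes. Ripk3 and Bid lie near the line, whereas Gpx4, Pycard, Bok and Bad lie above 0 on the horizontal axis and below 0 on the vertical one.

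Levels per kilobase of exon spanned a wide range in both groups. Gpx4 was highest, at 403 CPM per kb in cKO kidneys and 212 CPM per kb in Control kidneys, followed by Mcl1 at 50.9 and 34.8 CPM per kb. Ripk3 reached 2.27 CPM per kb in cKO kidneys against 0.414 in Control kidneys, and Mlkl reached 2.56 against 0.974. Casp4 stood at 2.27 CPM per kb in cKO kidneys and 0.662 in Control kidneys. Bak1 stood at 13.3 CPM per kb in cKO kidneys and 5.32 in Control kidneys, and Bid at 8.59 in cKO kidneys and 27.9 in Control kidneys. Among the 36 genes in Control kidneys Ripk3 was rank 35, above Nlrp3 (0.159 in cKO kidneys and 0.145 in Control kidneys).

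Other genes of the same routes, 96 in all, were taken from a second list. It was also chosen with earlier results of these data known, so its shares are no independent support. Of the 87 that could be tested, 10 rose, 7 fell and 70 did not pass (19.5% called, against 14.1% of all genes), with a median log2 fold change of 0.14. In apoptosis 8 rose and 1 fell of 29 (31.0%). These genes were not sorted by whether they promote or block death. Tnfrsf12a, the receptor for the cytokine TWEAK, rose to 257 ± 149.5 CPM in cKO kidneys, against 16.4 ± 1.28 CPM in Control kidneys (log2 fold change 3.97, SE 0.44, adjusted p = 0.000811). The death receptor gene Tnfrsf10b was at 12.9 ± 1.49 CPM in cKO kidneys, against 2.85 ± 0.727 CPM in Control kidneys (log2 fold change 2.17, SE 0.25, adjusted p = 0.000983), whereas its ligand gene Tnfsf10 fell, at 41.2 ± 11.1 CPM in cKO kidneys, against 134 ± 21.1 CPM in Control kidneys (log2 fold change -1.70, SE 0.25, adjusted p = 0.00285). Bbc3, the BH3-only protein PUMA, was at 4.32 ± 1.598 CPM in cKO kidneys, against 1.31 ± 0.178 CPM in Control kidneys (log2 fold change 1.71, SE 0.31, adjusted p = 0.00656), and Pmaip1, the BH3-only protein NOXA, at 79.8 ± 45.8 CPM in cKO kidneys, against 17.9 ± 4.74 CPM in Control kidneys (log2 fold change 2.16, SE 0.50, adjusted p = 0.02003). The groups of Pmaip1 overlapped, with KO16 at 19.9 CPM and C10 at 24.9 CPM. The other 4 that rose, named after their values were seen, were Bax (2.07), Bcl2a1b (2.97), Bcl2a1d (2.56) and Birc3 (0.82). Counts of the closely related genes Bcl2a1b and Bcl2a1d may be uncertain. Tnfrsf12a, Tnfrsf10b, Tnfsf10 and Bbc3 kept their calls in every alternative. The call of Pmaip1 was lost without C11, C13 or C14 and that of Bax without KO20, C11, C13 or C14 (adjusted p of at most 0.0716 and 0.0757). Without KO16 and KO20 together, Bax stood at 0.98 (adjusted p = 0.0602), Bcl2a1b at 1.33 (0.0531) and Bcl2a1d at 1.33 (0.0615), all short of the threshold. Limma-voom did not call Bcl2a1b (0.0653) or Birc3 (0.0610), and Birc3 was not called with no filter (0.106). Those of Bcl2a1b, Bcl2a1d and Birc3 were each lost without any of C10, C11, C13, C14 and KO20, and that of Birc3 also without KO18 or KO19 (adjusted p of at most 0.0776, 0.0759 and 0.153).

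Of 13 other necroptosis genes none passed by edgeR, DESeq2 or limma-voom; 1, 2 and 1 of them had an unadjusted p under 0.05 with these tools. Of 15 other pyroptosis genes 2 fell (13.3%). Nlrc4, an inflammasome platform for bacterial proteins, was at 2.996 ± 0.9003 CPM in cKO kidneys, against 9.98 ± 2.304 CPM in Control kidneys (log2 fold change -1.73, SE 0.28, adjusted p = 0.00446), and kept its call in every alternative. Nlrp6, an epithelial sensor, was at 39.9 ± 21.7 CPM in cKO kidneys, against 126 ± 47.6 CPM in Control kidneys (log2 fold change -1.65, SE 0.45, adjusted p = 0.0401); its call was lost without any of C10, C11, C13, C14, KO16 and KO20 (adjusted p of at most 0.0903), with library totals alone (-1.28, adjusted p = 0.120) and without KO16 and KO20 together (-1.12, adjusted p = 0.0670).

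Of 30 other ferroptosis genes 2 rose and 4 fell. Hspb1, a small heat shock protein, was at 33.1 ± 13.4 CPM in cKO kidneys, against 4.69 ± 0.857 CPM in Control kidneys (log2 fold change 2.82, SE 0.32, adjusted p = 0.000903). Gch1, which starts the synthesis of the radical scavenger tetrahydrobiopterin, was at 5.15 ± 3.37 CPM in cKO kidneys, against 1.53 ± 0.189 CPM in Control kidneys (log2 fold change 1.74, SE 0.46, adjusted p = 0.0337). Tfrc, the transferrin receptor that brings iron into cells, fell (37.7 ± 15.3 CPM in cKO kidneys, against 119 ± 5.53 CPM in Control kidneys; log2 fold change -1.65, SE 0.33, adjusted p = 0.0106). The other 3 that fell were Gclm, a subunit of the enzyme that starts glutathione synthesis (-0.86), Slc3a2, the heavy chain of the cystine carrier (-0.87), and Acsl3, which activates monounsaturated fatty acids (-0.85). Slc7a11, the other chain of the cystine carrier, had 0 to 6 reads a library and was not tested. Hspb1 and Tfrc kept their calls in every alternative. The calls of Gch1, Gclm, Slc3a2 and Acsl3 were each lost without C10, C13, C14 or KO20, those of Gch1 and Acsl3 also without C11, and those of Gclm, Slc3a2 and Acsl3 also without KO19. The adjusted p without 1 mouse was at most 0.100 for Gch1, 0.0929 for Gclm, 0.0912 for Slc3a2 and 0.0754 for Acsl3. Gch1 was also not called by limma-voom (1.47, adjusted p = 0.0725) or without KO16 and KO20 together (0.70, adjusted p = 0.0688). With library totals alone Gclm (-0.52, adjusted p = 0.0862), Slc3a2 (-0.54, 0.161) and Acsl3 (-0.50, 0.2502) were not called. Gclm also missed the threshold with upper-quartile factors (0.0522) and with the length trend taken out (0.0894).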

How the data were processed

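Poly(A) RNA of 8 whole mouse kidneys was sequenced from stranded libraries (4 cKO, 4 Control). The deposited files hold read counts per Ensembl gene; per the submitters' processing notes the authors used cutadapt 1.3, STAR 2.4.0g and HTSeq 0.6.1 with GRCm38. Neither the annotation release nor the strand setting is given in the sources used here, and HTSeq leaves reads that map to several places unassigned. Rows naming no gene (39.7% to 56.2% of a library) were left out. Symbols came from GENCODE vM21, which held 46005 of 46517 listed genes. The members, gene lists and marker lists were chosen with earlier results of these data known.

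Counts were filtered with filterByExpr (minimum count 10, minimum total 15), scaled with TMM factors and tested with the edgeR 4.0.16 quasi-likelihood test in R 4.3.3, with Benjamini-Hochberg adjustment over 15382 genes and a threshold of 0.05. The SE of a log2 fold change was its size divided by the square root of F. CPM are TMM-scaled, given as mean ± SD. The common biological coefficient of variation was 0.386. The procedure was tested on simulated data. Alternatives were other scalings, DESeq2 1.42.0, limma-voom (limma 3.58.1), no filter, a mean of at least 1 CPM, removal of the length trend, and leaving out libraries. All 36 members were named, and of the other pathway genes the called ones with the smallest p in each route, up to 4 in each direction. Promoter windows are from RefSeq (GRCm38.p6). The labels do not name a batch.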

Additional observations from a re-analysis of the deposited data

Results flagged for a closer look

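Among 72 groups of 4 mice (each of the 36 genes in each group), 6 held a mouse whose gap to the nearest other mouse exceeded the share of the group's range set by Dixon's critical value. Chance flags about 1 in 20 groups, but the same mice recur in every gene, so the flags are not independent. In the cKO group, Fadd was at 28.53 CPM in KO16 and at 11.68 to 13.79 CPM in the other cKO mice. The other 5 were values of C11 in the Control group. Over all genes tested, C11 was the highest Control mouse for 42.6% and the lowest for 42.2%. Bcl2 was at 16.97 CPM in C11 and at 11.47 to 12.15 CPM in the other Control mice. Bid was at 66.74 CPM in C11, against 107.4 to 111.7 CPM. Xiap was at 69.87 CPM in C11, against 116.1 to 124.5 CPM. Gpx4 was at 150.3 CPM in C11, against 424.5 to 460.2 CPM. Aifm2 was at 22.42 CPM in C11, against 13.73 to 14.67 CPM.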

How the results depend on the processing

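The fall of Xpr1 and Bid and the rise of Ripk3 were called in all 18 alternatives. Leaving out 1 mouse at a time gave 1106 to 2697 called genes, 1 to 5 members higher, 1 to 1 lower, 1 to 4 apoptosis, 1 to 2 necroptosis, 0 to 1 pyroptosis, 0 to 0 ferroptosis and 7 to 21 other pathway calls, and -2.98 to -2.37 for Xpr1. Upper-quartile factors gave 2 pyroptosis calls, and library totals alone 8 members higher, 5 apoptosis and 2 pyroptosis calls. These scalings moved the median of all genes to 0.14 and 0.34 and the share of calls that were higher to 63.9% and 81.2%, against 53.2%. DESeq2 called 3267 genes and 27 other pathway genes. With the length trend removed 2 members were lower and 5 apoptosis genes were called. Without KO16 and KO20 these counts were 2 and 5, with 0 pyroptosis calls. Without KO16, KO20 and C11 there were 9175 calls, 10 members higher, 9 lower, 12 apoptosis, 2 pyroptosis, 2 ferroptosis and 56 other pathway calls.

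Log2 fold changes that turned sign were as follows. Upper-quartile factors: Bcl2l11 0.12, Tfam 0.054. Library totals alone: Casp2 0.077, Casp8 0.11, Bcl2l11 0.34, Cycs 0.16, Xiap 0.24, Birc2 0.25, Ripk1 0.10, Tfam 0.21. Limma-voom: Bcl2 -0.0074, Bcl2l11 0.020, Fadd -0.080. No filter: Fadd -0.020. Mean of at least 1 CPM: Bcl2l11 0.0036. Length trend removed: Bcl2l11 0.13. Without KO16 and KO20: Casp2 0.18, Casp6 -0.18, Casp8 0.0033, Bok -0.26, Bcl2l11 0.38, Diablo -0.072, Birc2 0.18, Fadd -0.42, Tradd -0.068, Ripk1 0.023, Zbp1 -0.036, Pycard -0.19, Gpx4 -0.61. Without KO16, KO20 and C11: Casp2 0.26, Casp6 -0.33, Casp8 0.11, Bok -0.53, Bcl2l11 0.76, Bad -0.14, Diablo -0.24, Birc2 0.094, Fadd -0.44, Tradd -0.16, Zbp1 -0.22, Casp1 -0.13, Pycard -0.44, Gpx4 -0.90. Over the fits that leave out 1 mouse, the ranges were Bcl2l11 -0.21 to 0.39 (sign turned without KO16, KO20 or C11), Xiap -0.31 to 0.12 (sign turned without KO16), Birc2 -0.28 to 0.077 (sign turned without KO16), Fadd -0.36 to 0.22 (sign turned without KO16 or C14), Bcl2 -0.11 to 0.35 (sign turned without KO18), Tfam -0.28 to 0.049 (sign turned without KO18, KO19 or C10), Cycs -0.37 to 0.015 (sign turned without KO19 or C10) and Aifm2 -0.0030 to 0.27 (sign turned without C10 or C13). The cause was not tested. No paired analysis was possible because the labels give no pairing and do not name the litter of a mouse. Litter was therefore not modelled, although the Control mice were littermates. Whether depth limits the genes with few reads, such as Nlrp3, was not tested.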
